A study of Mus musculus with 21 samples.

Results

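Aminoacyl-tRNA synthetases were followed in mouse forelimb buds (FBs) as the genes whose symbol names one of these enzymes. They numbered 31 of the 14860 genes that had a feature of their own on the arrays. Within the family the symbol alone chose the genes, but the family was taken up with earlier results of these data known. Of the 31, 16 encode cytosolic enzymes (*Cars*, *Farsa*, *Farsb*, *Gars*, *Hars*, *Iars*, *Kars*, *Lars*, *Mars1*, *Nars*, *Qars*, *Rars*, *Tars*, *Vars*, *Wars* and *Yars*). The other 15 encode mitochondrial enzymes, whose symbols end in 2 (*Aars2*, *Ears2*, *Fars2*, *Hars2*, *Iars2*, *Lars2*, *Mars2*, *Nars2*, *Pars2*, *Rars2*, *Sars2*, *Tars2*, *Vars2*, *Wars2* and *Yars2*). *Aars* shared its feature with *Exosc6* and entered no comparison, and family genes without a feature of their own are not analysed here. The FBs came from Swiss mouse embryos of 2 stages, and the labels name no allele and no agent for any group. E10.5 FBs were taken from embryos without culture (0 h) or after 1, 3 or 6 h of whole embryo culture, and E12.5 FBs at 0, 1 or 3 h. Each of the 7 groups had 3 arrays, which the labels call biological replicates, and every culture time used FBs of its own. Whether 1 array held the FBs of 1 embryo or of several is not given in the sources used here.

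An aminoacyl-tRNA synthetase joins an amino acid to the transfer RNA that reads its codons, which is the step at which the genetic code is set. The cytosol and the mitochondrion use separate enzymes for most amino acids, all encoded in the nucleus, whereas *Gars* and *Kars* each supply both compartments. Some cytosolic enzymes are held together in a multisynthetase complex on scaffold proteins. When amino acids run short, uncharged transfer RNA activates the kinase Gcn2 (*Eif2ak4*), phosphorylated eIF2 alpha then favours translation of the transcription factor Atf4, and Atf4 switches on genes for amino acid uptake and synthesis. In mouse and human cells many cytosolic synthetase genes have been described as Atf4 targets. From general knowledge, 9 of the 16 measured here were taken as such (*Cars*, *Gars*, *Iars*, *Lars*, *Mars1*, *Nars*, *Tars*, *Wars* and *Yars*).

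All values are log2 values after RMA, and a change is a difference of group means on that scale with its standard error (SE). The term called stands for an adjusted p under 0.05 in a limma fit over all 21 arrays and all 14860 genes. A level of 1 gene cannot be set against that of another gene, because each has its own probes. The number of arrays limits the precision, and with 3 arrays a side the smallest p of an exact permutation test is 0.1. Array medians lay between 6.00 and 6.60, the lowest being E10.5 3 h replicate 2 (6.00) and 6 h replicate 3 (6.02), and all E12.5 arrays (6.43 to 6.60) lay above all E10.5 arrays. Correlations between arrays ran from 0.942 to 0.992. The 7 limb mesenchyme markers, all measured, had means between 9.73, at E10.5 6 h, and 10.88, at E12.5 0 h, beside 6.99 to 7.26 for all genes. Markers of other tissues differed between arrays. The 6 measured of 9 placenta and decidua markers averaged 6.50, 8.34 and 8.28 at E10.5 0 h and 5.39 to 5.76 at 1 h and 3 h. The 6 measured of 8 neuron markers averaged 10.05 on E10.5 1 h replicate 1 and at most 7.06 on any other array. In whole FBs, fewer cells of a type and less RNA per cell cannot be told apart.

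**Figure D1:**
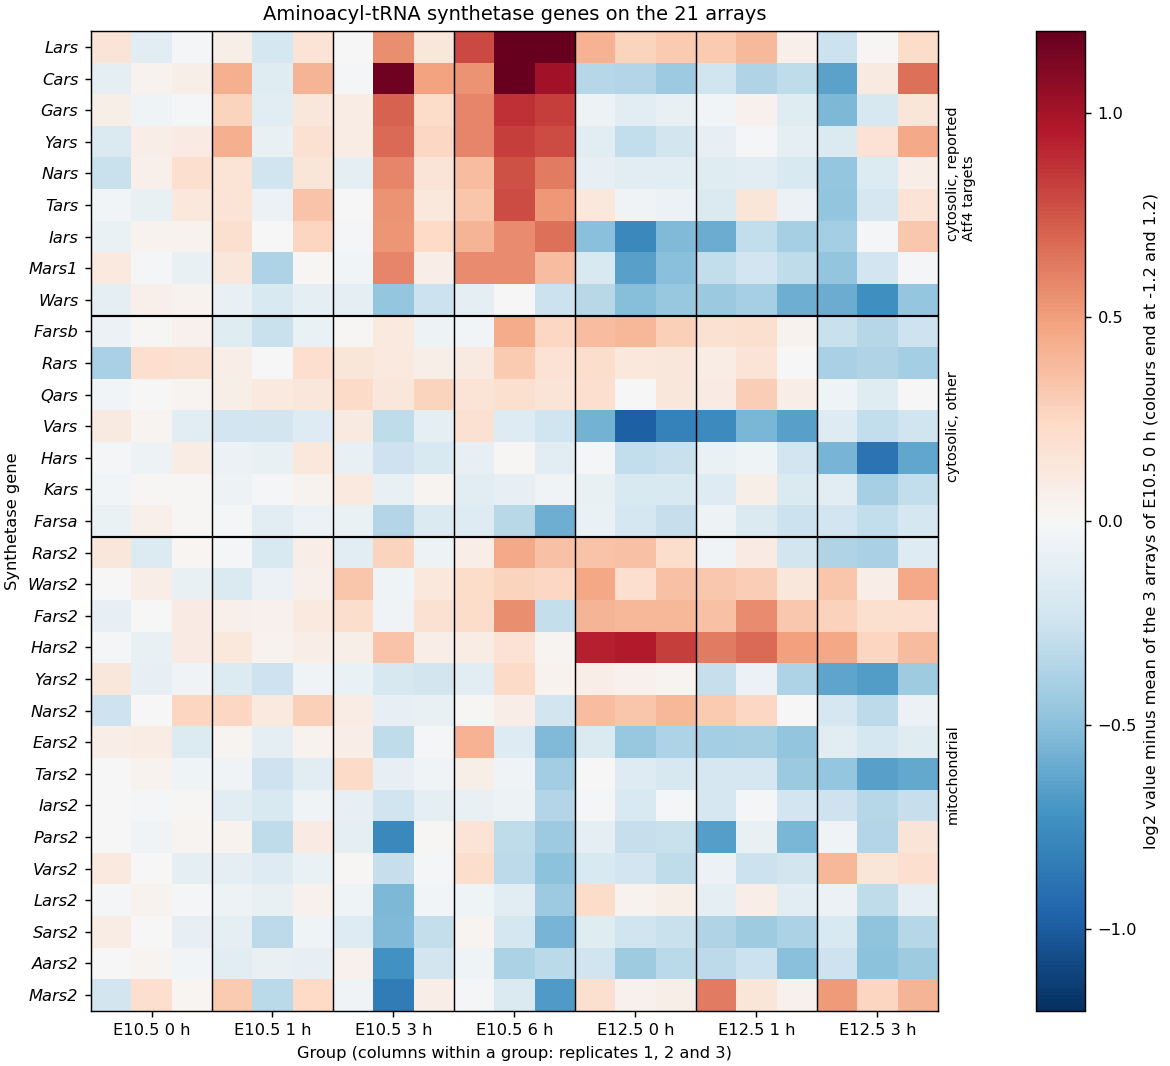
Each cell shows the log2 value of a synthetase gene on 1 array minus the mean of the 3 arrays of E10.5 at 0 h, for 31 genes (rows) and 21 arrays (columns, in 7 groups), with colours that end at -1.2 and 1.2. The upper block, the 9 reported Atf4 targets, is red across the 3 arrays of E10.5 at 6 h except for *Wars*, and *Hars2* is red in all E12.5 columns.

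During the first hours of culture of E10.5 embryos no synthetase gene changed past the threshold. At 1 h, 0 of 31 were called, beside 3.91% of all genes. The changes lay between -0.20 and 0.23, 0 had an unadjusted p under 0.05 (17.2% of all genes did), and the methods' t-test called 0. At 3 h, 0 of 31 were again called, beside 4.68% of all genes, and the methods' t-test called 0. Here 3 genes had an unadjusted p under 0.05, beside 20.1% of all genes, namely *Wars* (-0.28, adjusted p = 0.137), *Qars* (0.21, adjusted p = 0.155) and *Sars2* (-0.32, adjusted p = 0.185). The widest positive change at 3 h was that of *Cars*, the cysteine enzyme, with values from 8.86 to 9.03 at 0 h and of 8.95, 10.13 and 9.45 after 3 h. Replicate 2 of the 3 h group stood well above the others, and replicate 1 lay within the range at 0 h. The same replicate 2 held the highest of the 3 values for 8 of the 9 reported Atf4 targets and the lowest for 12 of the 15 mitochondrial genes. It is also the array with the lowest median, and the part of this in its values was not tested. Without it and 6 h replicate 3, 0 genes were called at 1 h and at 3 h.

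By 6 h of culture, 3 cytosolic synthetase genes had risen and 1 had fallen in the limma fit, and 0 of the 15 mitochondrial genes were called. The methods' t-test called 0 of the 31 at 6 h as well. Its 0 at 1 h and at 3 h of E10.5 culture therefore says little about those times. *Lars*, *Gars* and *Yars*, which charge the transfer RNAs of leucine, glycine and tyrosine, rose. *Farsa*, the alpha subunit of the phenylalanine enzyme, fell. These 4 of 31 genes compare with 6.76% of all genes (3.89% higher and 2.87% lower), and all 4 are cytosolic. The median change was 0.36 over the 16 cytosolic genes, -0.13 over the 15 mitochondrial genes (0.012 without 6 h replicate 3) and -0.04 over all genes tested. E10.5 cultures of 1, 3 and 6 h are compared with the same 3 arrays at 0 h, so their changes are not independent.

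*Lars* had values of 8.70, 8.42 and 8.54 without culture and 9.34, 9.88 and 9.75 at 6 h, so that every cultured array lay above every uncultured one. Its change was 1.10 (SE 0.17, adjusted p = 0.000342), a 2.15-fold higher level. It was the only synthetase whose levels at 6 h and 3 h differed past the threshold, with 8.56, 9.11 and 8.69 at 3 h and a change of 0.87 (SE 0.17, adjusted p = 0.00946), beside 2.27% of all genes called. That call was lost without 3 h replicate 1 (0.75, adjusted p = 0.0526) or 6 h replicate 2 (0.76, adjusted p = 0.0539), and without 6 h replicate 1 there were 2 calls. The methods' t-test did not give the *Lars* call either (adjusted p = 0.594). *Gars* went from 10.83, 10.70 and 10.74 at 0 h to 11.34, 11.64 and 11.59 at 6 h. The 2 sets of arrays did not overlap, and the change was 0.76 (SE 0.17, adjusted p = 0.00814), or 1.70-fold. The uncultured arrays of *Yars* read 10.39, 10.64 and 10.67, and the 6 h arrays 11.15, 11.39 and 11.35. All 3 cultured arrays were higher, by 0.73 on average (SE 0.17, adjusted p = 0.0109), or 1.66-fold. For *Farsa* the uncultured arrays read 9.30, 9.44 and 9.40 and the 6 h arrays 9.22, 9.05 and 8.79. The groups did not overlap, but the highest 6 h array lay close to the lowest 0 h array, and the change was -0.36 (SE 0.11, adjusted p = 0.0492). This call was lost without any of the 0 h arrays (-0.40, -0.33 and -0.35 without replicates 1, 2 and 3), and also when 6 h replicate 2 (-0.37) or 3 (-0.24) was left out. The partner subunit *Farsb* had a change of 0.22 (adjusted p = 0.237).

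The largest positive changes lay among the genes reported as Atf4 targets. That list came from general knowledge and was drawn up with earlier results of these data known, so the split is a description only. In 8 of these 9 genes all 6 h arrays lay above all 0 h arrays, beside 10.6% of all genes, and the exception was *Wars* (-0.12). Besides the 3 called, *Cars* (0.92, adjusted p = 0.0658), *Nars* (0.59, adjusted p = 0.0542), *Iars* (0.55, adjusted p = 0.0536), *Tars* (0.55, adjusted p = 0.0647) and *Mars1* (0.50, adjusted p = 0.0865) did not pass the threshold. The median was 0.59 over the 9 genes and -0.07 over the 7 other cytosolic genes, among which *Qars* (0.17) also had no overlap upwards. Within the multisynthetase complex, *Lars*, *Iars* and *Mars1* had changes of 1.10, 0.55 and 0.50, while *Rars*, *Qars* and *Kars* had 0.20, 0.17 and -0.09. The 6 complex members among the measured genes, which are not the whole complex, had a median of 0.35. The 10 measured cytosolic enzymes outside it had 0.38. Enzymes of catalytic class I (9 genes) and class II (7 genes), which differ in the fold of their active site, had medians of 0.50 and 0.22.

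Array by array, the mean of the 9 reported Atf4 targets was 10.15, 10.19 and 10.25 before culture and 10.65, 10.97 and 10.83 at 6 h. Replicate 1 was the lowest of the 6 h arrays for 7 of the 9 genes. Without that array 10 synthetases were called instead of 4, *Cars* (1.11, adjusted p = 0.0322), *Nars* (0.69, adjusted p = 0.0297), *Tars* (0.65, adjusted p = 0.0331) and *Iars* (0.62, adjusted p = 0.0396) among them. Calls over all genes moved too. With each array of this comparison left out in turn, 398 to 710 of all genes were higher and 189 to 1000 lower. The main fit had 578 and 426. The 15 mitochondrial genes averaged 8.26, 8.27 and 8.26 before culture and 8.34, 8.26 and 7.99 at 6 h, where replicate 3, the array with the second lowest median, was lowest for 11 of 15. With that array and 3 h replicate 2 left out, 5 synthetases were called at 6 h.

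**Figure D2:**
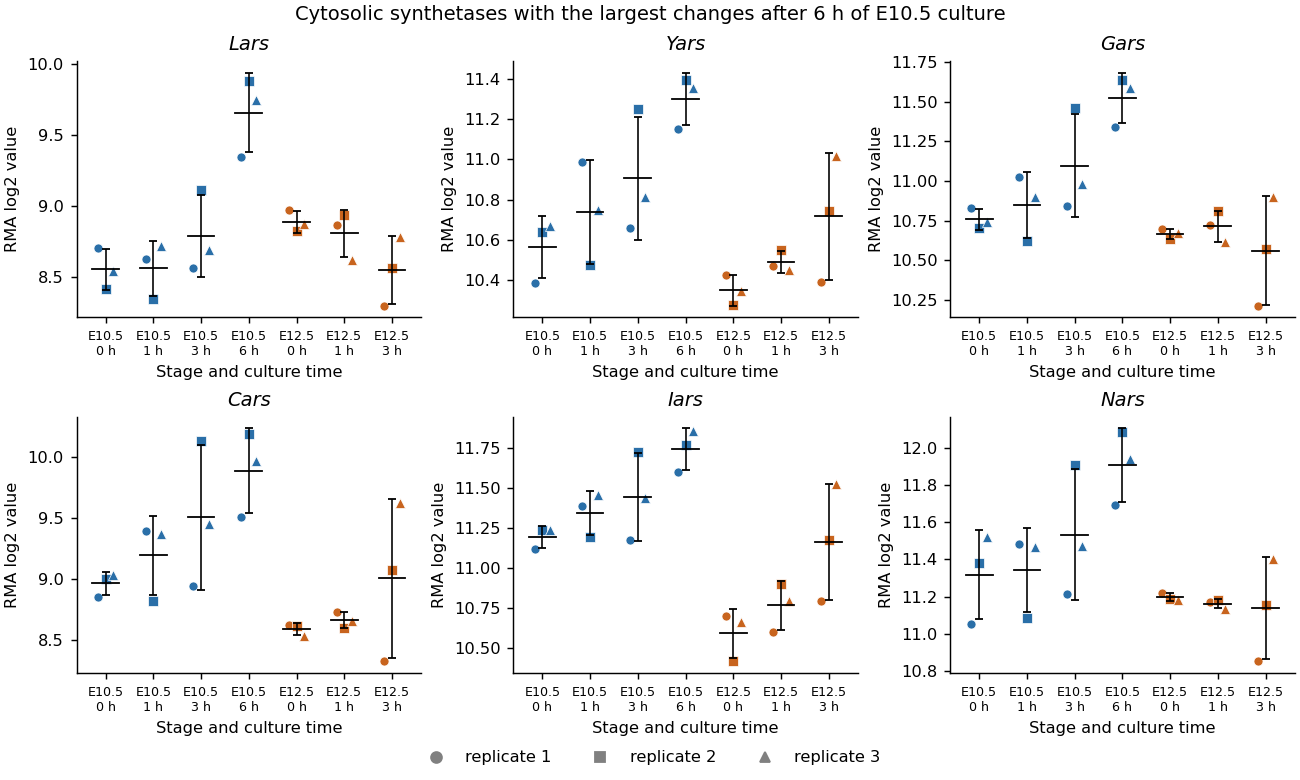
RMA log2 values of *Lars*, *Yars*, *Gars*, *Cars*, *Iars* and *Nars* in the 7 groups, E10.5 in blue and E12.5 in orange, with symbols for the 3 replicates, a line at the mean and bars of 1 SD (n = 3). In each panel the 3 arrays of E10.5 at 6 h lie above the 3 arrays at 0 h, and at E10.5 3 h replicate 2 lies above its partners.

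The promoters of these genes were read for the core of the C/EBP-ATF response element, the composite site that Atf4 binds together with a C/EBP factor. Promoters were taken from RefSeq (assembly GRCm38.p6), from 250 bases before to 50 after the start, and 22 of the 31 genes had one in the table. *Cars*, *Hars*, *Lars*, *Nars*, *Rars*, *Vars*, *Wars*, *Hars2* and *Pars2* did not. The letters TGATGNAA were searched on both strands. They were found in 4 of the 22, all of them reported Atf4 targets (*Yars*, *Gars*, *Iars* and *Tars*), in 0 of 4 other cytosolic genes and in 0 of 13 mitochondrial genes. The same letters stood in 3.97% of all 32851 promoters of that length. The first 4 sequences below are those with the letters, shown in capitals, and *Mars1* and *Qars* stand for cytosolic genes without them. Each runs 5′ to 3′ on the strand of its gene from 50 bases before to 20 after the start.
Yars: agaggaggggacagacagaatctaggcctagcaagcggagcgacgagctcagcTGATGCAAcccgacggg
Iars: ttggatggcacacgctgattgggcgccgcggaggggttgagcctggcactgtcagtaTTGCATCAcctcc
Tars: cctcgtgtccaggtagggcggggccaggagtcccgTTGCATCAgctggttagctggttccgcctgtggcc
Gars: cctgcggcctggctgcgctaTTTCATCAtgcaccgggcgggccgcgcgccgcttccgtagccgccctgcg
Mars1: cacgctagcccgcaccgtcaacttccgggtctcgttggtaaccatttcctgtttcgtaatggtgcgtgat
Qars: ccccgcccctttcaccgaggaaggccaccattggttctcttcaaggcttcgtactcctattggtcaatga

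In *Yars* (chr4:129189853-129189922, plus strand) the match ran on the gene's own strand from base 4 to base 11 after the start. In *Iars* (chr13:49682080-49682149, plus strand) it lay on the opposite strand, from base 8 to base 15. In *Tars* (chr15:11399639-11399708, minus strand) and *Gars* (chr6:55037951-55038020, plus strand) it was also on the opposite strand, 15 to 8 and 30 to 23 bases before the start. The windows of *Mars1* and *Qars* are chr10:127311767-127311836 (minus strand) and chr9:108507955-108508024 (plus strand). A match in these letters is a description of the sequence and shows no binding in FBs. *Mars1* has no match in this window and had a change of 0.50 at 6 h, so the letters and the changes did not run strictly together.

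Genes of the amino acid response rose in E10.5 culture as well, some of them already at 1 h. Of 28 listed genes 24 were measured, and 5, 7 and 16 rose at 1, 3 and 6 h, beside 2.79%, 3.23% and 3.89% of all genes, while 0 fell at any of these times. Their median changes were 0.49, 0.56 and 0.97. At 6 h *Slc7a3*, a transporter of cationic amino acids, rose by 4.74 (adjusted p = 0.000484), *Chac1*, which degrades glutathione, by 2.49 (adjusted p = 0.0163), *Sesn2*, a leucine sensor of the mTOR pathway, by 1.53 (adjusted p = 0.0253), and *Asns*, which makes asparagine, by 1.52 (adjusted p = 0.00642). The arrays of *Asns* read 10.34, 10.83 and 10.97 before culture, 10.68, 11.89 and 11.27 after 3 h and 12.13, 12.34 and 12.22 after 6 h. All 6 h arrays lay above the others, and among the 3 h arrays replicate 2 was again the highest. *Chac1* was already at 11.40, 10.40 and 10.81 at 1 h, from 7.56, 7.73 and 7.15 at 0 h, a rise of 3.39 (adjusted p = 0.00366). Among the 1 h arrays replicate 1, the array with the high neuron markers, was the highest for 21 of the 24 genes. Replicate 2 was the lowest for 21, and the part of such array differences in the 1 h calls was not tested. At 3 h replicate 2 was the highest array for 22 of the 24 genes, as for the reported Atf4 targets. *Atf4* itself had at most 10.64 before culture and 10.51, 11.05 and 11.22 after 6 h, a change of 0.38 that did not pass the threshold (adjusted p = 0.287). At 1 h it read 11.22, 10.82 and 11.13, above every 0 h array, and at 3 h 10.71, 11.04 and 10.59, with overlap.

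Other genes of translation were read against 3.91%, 4.68% and 6.76% of all genes called at 1, 3 and 6 h of E10.5 culture. None of the 3 scaffold genes of the multisynthetase complex (*Aimp1*, *Aimp2* and *Eef1e1*), the 4 genes of mitochondrial transamidation and formylation of charged transfer RNA, the 3 measured cytosolic elongation factors, the 3 measured synthetase-like and editing factors or the 2 measured eIF2 alpha kinases was called at 1, 3 or 6 h. Of 10 mitochondrial translation factors only *Mrrf*, the ribosome recycling factor, was called (0.32 at 3 h, adjusted p = 0.0405, and 0.51 at 6 h, adjusted p = 0.00108). At 6 h, 0 of 68 mitochondrial and 1 of 19 cytosolic ribosome subunits were called, with medians of -0.11 and -0.08, and 1 of 19 and 1 of 10 lie near the share of all genes. Marker lists also moved at 6 h, and their part in the synthetase changes was not tested. The 7 limb mesenchyme markers averaged 10.56 to 10.68 at 0 h and 9.73 to 9.96 at 6 h, so that all cultured arrays lay below all uncultured ones. The neuron markers went from 5.75 to 6.01 at 0 h to between 6.23 and 7.06 at 6 h. Mean levels at 0 h and 6 h were 6.51 to 7.12 and 8.31 to 8.94 for 5 of 5 mesothelium markers, 8.57 to 8.87 and 9.28 to 9.77 for 5 of 5 endothelium markers, and 6.50 to 8.34 and 6.71 to 7.94 for the placenta and decidua markers. Interferon-induced genes, of which *Wars* is one in many cells, had a median of -0.08 over 7 of 12 measured.

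**Figure D3:**
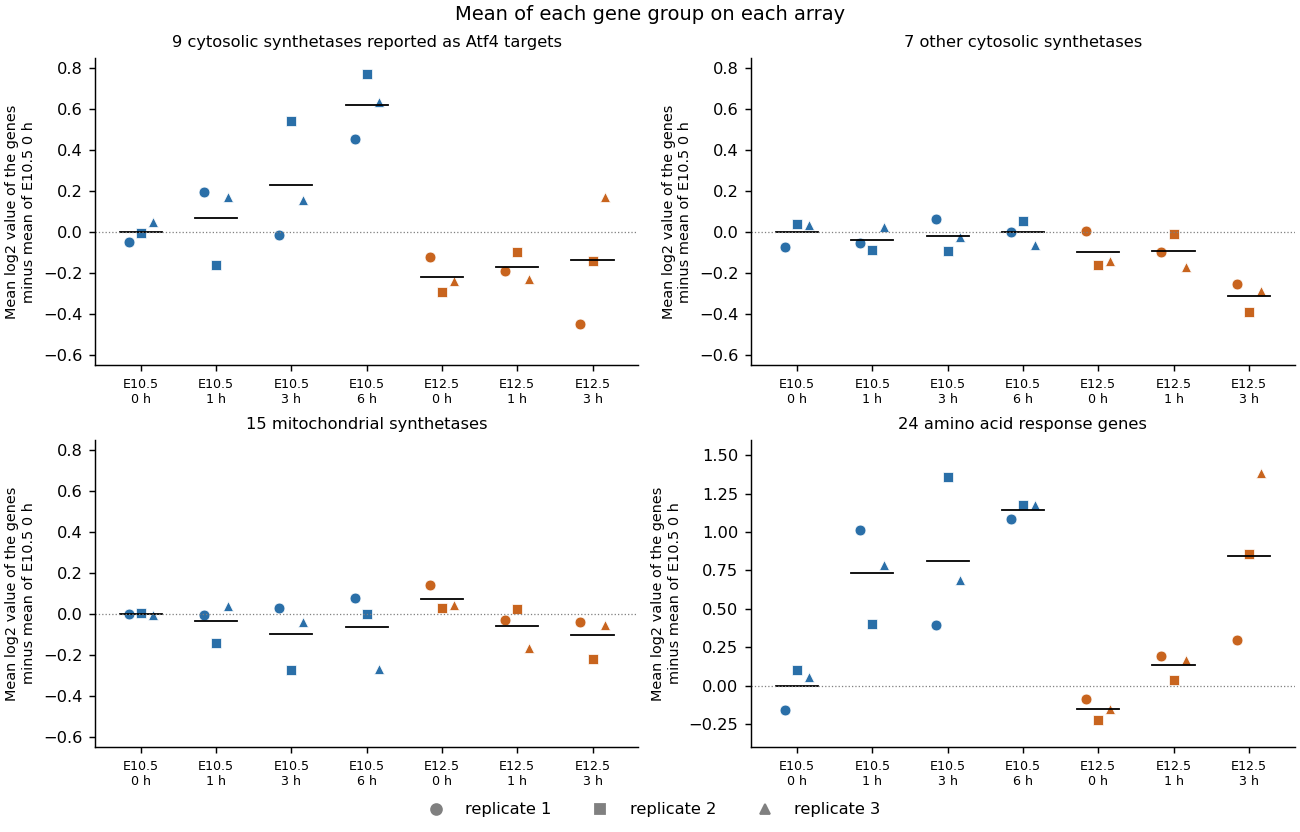
Mean log2 value of 4 gene groups on each of the 21 arrays, minus the mean of E10.5 at 0 h, with E10.5 in blue, E12.5 in orange, symbols for the 3 replicates and a line at the group mean; the panel of amino acid response genes has its own scale. The 9 reported Atf4 targets reach their highest arrays at E10.5 6 h, the 7 other cytosolic and the 15 mitochondrial genes do not, and at E10.5 3 h and E12.5 3 h the 9 targets spread in the same order of arrays as the amino acid response genes.

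In culture of E12.5 embryos synthetases were called at 3 h and none at 1 h. The changes at 3 h were not tested against those at E10.5 6 h, which is another culture time. At 1 h, 0 of 31 genes were called, beside 2.11% of all genes, and the methods' t-test called 0. There 3 genes had an unadjusted p under 0.05, beside 13.5% of all genes, namely *Hars2* (-0.31), *Rars2* (-0.36) and *Yars2* (-0.29). At 3 h, 3 genes rose (*Iars*, *Vars* and *Vars2*) and 8 fell (*Farsb*, *Yars2*, *Rars2*, *Nars2*, *Rars*, *Hars2*, *Hars* and *Tars2*). The 11 of 31 compare with 27.5% of all genes called, 9.94% higher and 17.6% lower. The 3 that rose lie near the share of all genes, and the 8 that fell lie somewhat above it. Of the 8 that fell 5 are mitochondrial, and the medians were -0.18 over mitochondrial, -0.11 over cytosolic and 0.01 over all genes. The 9 reported Atf4 targets had a median of -0.06 (0.083 without 3 h replicate 1), with 1 gene called.

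*Farsb*, the beta subunit of the phenylalanine enzyme, had 10.35, 10.38 and 10.27 before culture and 9.72, 9.64 and 9.73 at 3 h. The groups were far apart relative to their spread, with a change of -0.64 (SE 0.10, adjusted p = 0.000314). *Yars2*, the mitochondrial tyrosine enzyme, had 9.33, 9.30 and 9.28 and then 8.62, 8.58 and 8.82, a change of -0.63 (SE 0.11, adjusted p = 0.000451). *Rars2*, the mitochondrial arginine enzyme, had 9.45, 9.46 and 9.32 and then 8.74, 8.71 and 8.95, a change of -0.61 (SE 0.13, adjusted p = 0.00221). In both genes replicate 3 was the highest cultured array and still lay below every uncultured one. *Nars2*, for asparagine, had 8.30, 8.26 and 8.32 and then 7.73, 7.61 and 7.86, a change of -0.56 (SE 0.12, adjusted p = 0.00265). Smaller falls were those of *Rars* (-0.54), *Hars2* (-0.54), *Hars* (-0.50) and *Tars2* (-0.46), the last lost without 0 h replicate 1 (-0.40, adjusted p = 0.0505). Both the cytosolic and the mitochondrial gene were called lower for arginine (*Rars* and *Rars2*) and histidine (*Hars* and *Hars2*). The counterparts of *Yars2*, *Nars2*, *Tars2* and *Farsb* in the other compartment were not called. They changed by 0.37 (*Yars*), -0.06 (*Nars*), -0.18 (*Tars*) and -0.18 (*Fars2*).

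*Vars*, the cytosolic valine enzyme, had 9.86, 9.45 and 9.61 before culture and 10.27, 10.13 and 10.19 at 3 h. It rose by 0.56 (SE 0.13, adjusted p = 0.00399), with no overlap of the groups. Its mitochondrial counterpart *Vars2* had 7.82, 7.78 and 7.71 and then 8.41, 8.15 and 8.21, a rise of 0.48 (SE 0.14, adjusted p = 0.0161). *Iars*, for isoleucine, had 10.70, 10.42 and 10.66 and then 10.79, 11.17 and 11.52. The cultured arrays of *Iars* were all higher but spread widely around a rise of 0.57 (SE 0.16, adjusted p = 0.0146). The call of *Vars2* was lost without 0 h replicate 3 (0.45, adjusted p = 0.0556) or 3 h replicate 1 (0.41, adjusted p = 0.0754), and that of *Iars* without 0 h replicate 2 (0.48, adjusted p = 0.0722), without 3 h replicate 3 (0.39, adjusted p = 0.0908) or with all arrays at a common median (0.59, adjusted p = 0.0555).

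The 3 arrays of E12.5 at 3 h differed among themselves in the reported Atf4 targets. Their means were 9.75, 10.06 and 10.37, and replicate 3 was the highest for 9 of 9 genes and replicate 1 the lowest for 8 of 9. *Cars* for instance had 8.63, 8.61 and 8.53 before culture and 8.33, 9.07 and 9.62 at 3 h, so that replicate 1 lay below and replicates 2 and 3 above the uncultured arrays. The amino acid response genes gave 8.54, 9.10 and 9.63 on the same arrays, and replicate 3 was the highest for 23 of 24. For the 15 mitochondrial genes replicate 2 was the lowest in all 15. The 7 other cytosolic genes averaged 10.38, 10.22 and 10.24 before culture and 10.13, 9.99 and 10.09 at 3 h.

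Genes around the synthetases changed in E12.5 culture too. Of the 24 amino acid response genes 0 rose at 1 h, beside 1.29% of all genes, and 16 at 3 h, beside 9.94% of all genes, with a median of 0.71 at 3 h and 0 that fell. *Chac1* (3.02, adjusted p = 0.00129), *Slc7a3* (2.50, adjusted p = 0.0175), *Sesn2* (2.20, adjusted p = 0.000644) and *Stc2*, a secreted glycoprotein (2.07, adjusted p = 0.000364), had the largest rises. Genes of mitochondrial translation are read against the 17.6% of all genes that fell at 3 h. Of 10 translation factors 5 fell, with a median of -0.64, among them *Guf1* (-1.03, adjusted p = 7.84e-05), *Mtif2*, an initiation factor (-0.88, adjusted p = 0.000246), and the elongation factor *Gfm1* (-0.73, adjusted p = 0.00111). Of 68 mitochondrial ribosome subunits 31 fell and 0 rose, with a median of -0.39, while of 19 cytosolic ribosome subunits 4 fell and 1 rose, with a median of -0.08, and 4 of 19 lies near the share of all genes. *Qrsl1* (-0.96, adjusted p = 0.000403) and *Gatb* (-0.76, adjusted p = 0.00189), subunits of the amidotransferase that makes mitochondrial glutaminyl-tRNA, fell. The kinase gene *Eif2ak4* fell by 0.44 (adjusted p = 0.00531), and of the 3 scaffold genes of the complex 0 were called. Marker lists moved between 0 h and 3 h as well, without overlap, from 5.68 to 5.74 up to 6.07 to 6.58 for mesothelium, from 9.01 to 9.13 up to 9.19 to 9.63 for endothelium, from 9.28 to 10.16 up to 10.21 to 10.37 for skeletal muscle (4 of 7 measured) and from 6.04 to 6.13 up to 6.22 to 6.38 for neurons. The limb mesenchyme markers overlapped, at 10.68 to 10.88 and 10.63 to 10.75. The part of these lists in the E12.5 changes was not tested.

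**Figure D4:**
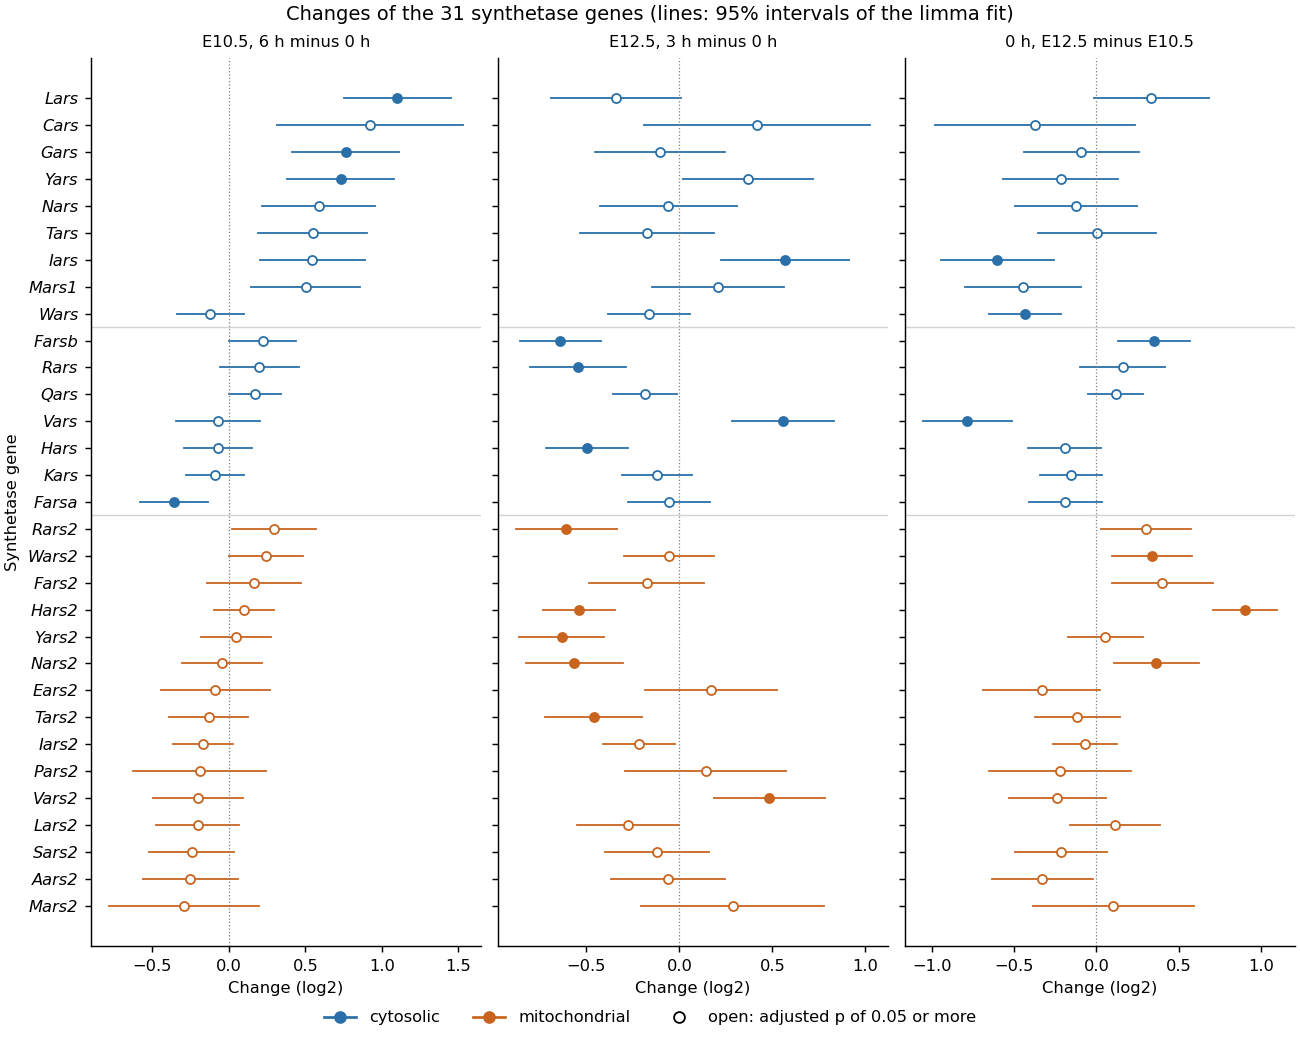
Changes of the 31 synthetase genes on the log2 scale in 3 comparisons (E10.5 6 h minus 0 h, E12.5 3 h minus 0 h, and E12.5 minus E10.5 at 0 h), with lines for the 95% intervals of the limma fit, cytosolic genes in blue, mitochondrial genes in orange and filled points for adjusted p under 0.05; each panel has its own horizontal scale. *Lars*, *Gars* and *Yars* are filled on the right of the first panel, 8 genes are filled on the left of the second, and *Hars2* lies farthest right in the third.

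Whether the 3 h response depended on stage was tested as the difference between the change in E12.5 culture and that in E10.5 culture. It was called for 7 of 31 synthetases, beside 14.3% of all genes. It was positive for *Vars* (0.66, SE 0.18, adjusted p = 0.0252), whose changes were 0.56 at E12.5 and -0.10 at E10.5. It was negative for *Hars2* (-0.70, SE 0.13, adjusted p = 0.00388), *Farsb* (-0.66, SE 0.15, adjusted p = 0.00957), *Rars* (-0.65, SE 0.17, adjusted p = 0.0200), *Rars2* (-0.63, SE 0.18, adjusted p = 0.0307), *Yars2* (-0.47) and *Qars* (-0.39). *Hars2* had 8.15, 8.07 and 8.26 at E10.5 0 h and 8.23, 8.50 and 8.24 at 3 h, against 9.09, 9.11 and 8.98 and then 8.62, 8.42 and 8.54 in E12.5 FBs. The 2 E10.5 groups overlapped, whereas the 2 E12.5 groups did not. The calls of *Hars2*, *Farsb* and *Rars* held without each array in turn, while those of *Vars* (0.56 to 0.65), *Rars2* (-0.61 to -0.51), *Qars* (-0.40 to -0.35) and *Yars2* (-0.50 to -0.42) were each lost without at least 5 of the 12 arrays. At 1 h the same difference was called for 0 of 31, beside 0.538% of all genes, with 2 at an unadjusted p under 0.05 (*Hars2*, -0.39, and *Nars2*, -0.40), beside 11.4% of all genes.

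Without culture, FBs of the 2 stages differed in 7 of 31 synthetases, beside 27.1% of all genes (19.7% higher and 7.39% lower in E12.5). The count of synthetases lies below the share of all genes. *Hars2*, *Nars2*, *Farsb* and *Wars2* were higher in E12.5 FBs, and *Vars*, *Iars* and *Wars* were lower. The balance depended on how the arrays were scaled. With every array shifted to a common median, which moved the stage difference of all genes by -0.23 at 0 h, 1 was higher (*Hars2*) and 14 were lower. With quantile normalization of the deposited values, 2 were higher (*Hars2* and *Farsb*) and 14 were lower. Of all genes, 1549 were higher and 3367 lower under the common median, and 2289 and 2498 under quantile normalization. The calls of *Hars2*, *Vars*, *Iars* and *Wars* and their directions held under both scalings.

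*Hars2*, the mitochondrial histidine enzyme, was 0.90 higher in E12.5 (SE 0.09, adjusted p = 1.41e-06), with 9.09, 9.11 and 8.98 against 8.15, 8.07 and 8.26. At 1.87-fold this was the widest difference of a synthetase on the deposited scale, whereas *Vars* had the wider one under the common median (-1.02, against 0.67 for *Hars2*) and under quantile normalization (-0.86, against 0.76). *Hars*, which lies beside it on chromosome 18 with 4 bases of overlap between the RefSeq spans, had 10.12, 9.85 and 9.87 in E12.5 and 10.11, 10.08 and 10.23 in E10.5, a difference of -0.19 that was not called. *Vars* had 9.86, 9.45 and 9.61 in E12.5 and 10.53, 10.45 and 10.29 in E10.5, a difference of -0.78 (SE 0.13, adjusted p = 0.000218). *Iars* had 10.70, 10.42 and 10.66 against 11.12, 11.24 and 11.23, a difference of -0.60 (SE 0.16, adjusted p = 0.0104), lost without E12.5 0 h replicate 2 (-0.52, adjusted p = 0.0556). *Wars*, the tryptophan enzyme, had 10.60, 10.42 and 10.47 against 10.83, 11.00 and 10.97, a difference of -0.43 (SE 0.10, adjusted p = 0.00478). In *Vars*, *Iars* and *Wars* every E12.5 array lay below every E10.5 array. *Nars2* (0.37), *Farsb* (0.35) and *Wars2* (0.34) were closer to the threshold, and each was lost without E10.5 0 h replicate 1 (0.24, 0.32 and 0.34) and under the common median (0.13, 0.12 and 0.11). *Farsb* was also lost without E12.5 0 h replicate 2 (0.33), *Nars2* without E10.5 0 h replicate 2 (0.36) or any E12.5 array (0.36, 0.38 and 0.35), and *Wars2* without E10.5 0 h replicate 3 (0.30) or E12.5 0 h replicate 1 (0.28) or 3 (0.33). Skeletal muscle markers (4 of 7 measured) averaged 9.28 to 10.16 in E12.5 and 6.43 to 7.49 in E10.5 at 0 h, and mesothelium markers 5.68 to 5.74 and 6.51 to 7.12. Their part in these differences was not tested.

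**Figure D5:**
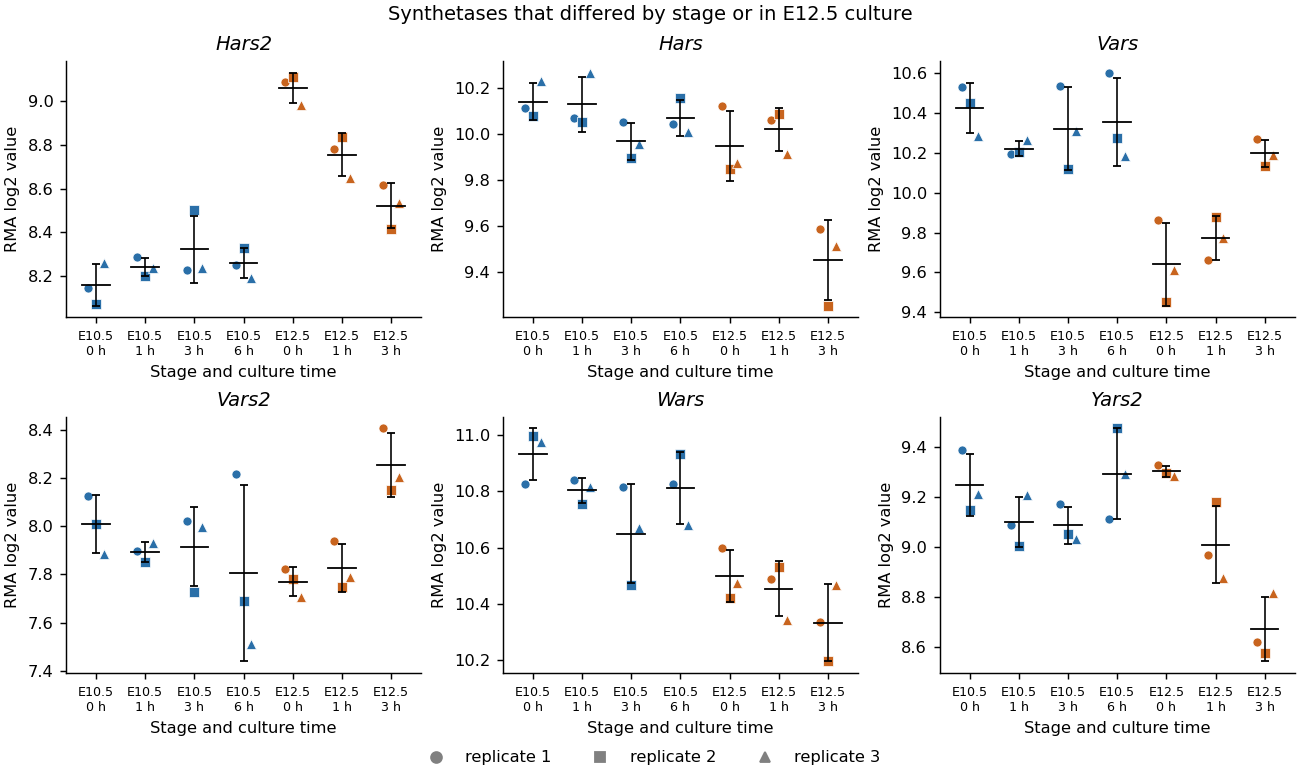
RMA log2 values of *Hars2*, *Hars*, *Vars*, *Vars2*, *Wars* and *Yars2* in the 7 groups, E10.5 in blue and E12.5 in orange, with symbols for the 3 replicates, a line at the mean and bars of 1 SD (n = 3). *Hars2* is highest in E12.5 at 0 h and lower at 1 h and 3 h, while *Vars* and *Vars2* are lowest or near it in E12.5 at 0 h and higher at 3 h.

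At 1 h of culture the 2 stages differed in 4 of 31 synthetases, beside 18.1% of all genes, so that the count again lies below the share of all genes. *Hars2* was higher in E12.5 (0.51, SE 0.09, adjusted p = 0.000687), and *Iars* (-0.58, adjusted p = 0.0185), *Vars* (-0.45, adjusted p = 0.0216) and *Wars* (-0.35, adjusted p = 0.0261) were lower, the 4 genes with the largest differences among those called at 0 h. Under the common median 0 were higher and 9 lower, *Hars2* at 0.29 (adjusted p = 0.128), and under quantile normalization 1 was higher and 7 lower. Of all genes, 1080 were higher and 2248 lower under the common median, and 1685 and 1710 under quantile normalization. The calls of *Iars*, *Vars* and *Wars* were each lost without E10.5 1 h replicate 3 (-0.52, -0.43 and -0.34) and without E12.5 1 h replicate 1 (-0.50, -0.39 and -0.37). *Iars* (-0.56) and *Wars* (-0.33) were also lost without E10.5 1 h replicate 1, *Vars* without replicate 2 of that group (-0.46), and *Vars* (-0.45) and *Wars* (-0.29) without E12.5 1 h replicate 3.

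At 3 h of culture 10 of 31 synthetases differed, beside 28.7% of all genes (17.7% higher and 11% lower in E12.5). The total of 10 lies near the share of all genes. *Mars2* was higher (0.66) and *Tars2*, *Gars*, *Hars*, *Rars*, *Yars2*, *Wars*, *Farsb*, *Kars* and *Qars* were lower, 7 of these 9 cytosolic. All 16 cytosolic genes had a difference below 0, with a median of -0.31, beside -0.02 over the 15 mitochondrial and 0.05 over all genes. *Tars2* had 8.53, 8.34 and 8.38 in E12.5 and 9.23, 8.90 and 8.95 in E10.5, a difference of -0.61 (SE 0.12, adjusted p = 0.00149). *Hars* had 9.59, 9.26 and 9.51 against 10.05, 9.89 and 9.95, a difference of -0.52 (SE 0.10, adjusted p = 0.00148). *Rars* had 10.94, 10.97 and 10.91 against 11.47, 11.44 and 11.40, a difference of -0.49 (SE 0.12, adjusted p = 0.00581). In *Tars2*, *Hars* and *Rars* the groups did not overlap, and their calls and that of *Yars2* held without each array in turn. *Gars* (-0.53, adjusted p = 0.0226) overlapped between the stages, with 10.21, 10.57 and 10.90 against 10.84, 11.46 and 10.98, and its call was lost without E10.5 3 h replicate 2 (-0.35), E12.5 3 h replicate 1 (-0.36) or E12.5 3 h replicate 2 (-0.54). *Mars2* read 8.65, 8.39 and 8.55 against 8.10, 7.30 and 8.22, and without E10.5 3 h replicate 2, its lowest array, the difference was 0.37 (adjusted p = 0.243), and the call was lost also without each E12.5 array (0.60, 0.73 and 0.65). *Farsb* was lost without any array of the 6 but E10.5 3 h replicate 3 (-0.32 to -0.26), *Kars* without E10.5 replicate 1 (-0.24) or E12.5 replicate 2 (-0.23) or 3 (-0.28), *Qars* without E10.5 replicate 3 (-0.25) or E12.5 replicate 2 (-0.23), and *Wars* without E10.5 replicate 1 (-0.23) or 3 (-0.31) or E12.5 replicate 1 (-0.32) or 2 (-0.25). Under the common median 0 were higher and 18 lower, and under quantile normalization 1 was higher and 13 lower. Of all genes, 1420 were higher and 3713 lower under the common median, and 2326 and 2365 under quantile normalization. The methods' t-test called 1 of the 31. At 3 h skeletal muscle markers averaged 10.21 to 10.37 in E12.5 and 7.04 to 8.38 in E10.5, mesothelium markers 6.07 to 6.58 and 7.87 to 8.38, and macrophage markers (5 of 5 measured) 6.52 to 6.93 and 5.62 to 5.95, and their part was not tested.

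Set side by side by amino acid, 12 pairs of a cytosolic and a mitochondrial gene could be formed, with *Fars2* set against both *Farsa* and *Farsb*. After 6 h of E10.5 culture the cytosolic gene had the larger change in 8 of 12 pairs, with a median difference of 0.38. *Lars* and *Lars2* changed by 1.10 and -0.20, *Iars* and *Iars2* by 0.55 and -0.17, *Yars* and *Yars2* by 0.73 and 0.04, and *Wars* and *Wars2* by -0.12 and 0.25. After 3 h of E12.5 culture it was 8 of 12 with a median difference of 0.07. Between the stages at 0 h the cytosolic change was the larger in 2 of 12 pairs, with a median difference of -0.51. The widest was the pair of *Hars* and *Hars2*, at -0.19 and 0.90. A shift that moves all genes of an array by the same amount cancels in these differences between members of a pair. A scaling that acts by intensity, such as quantile normalization, need not cancel, and the pairs were not recomputed under the alternatives.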

How the data were processed

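RNA from FBs was hybridised by the authors to Affymetrix Mouse Exon 1.0 ST arrays, 1 array a sample. The deposited log2 values came from RMA, run by the authors in Affymetrix Expression Console, which corrects background, normalises probe intensities across arrays and summarises them per feature. Its version, the genome build and the feature annotation are not given in the sources used here. All 21 columns were used, and none of the 23332 features had a missing value. Features naming 1 gene (14996) were kept, with the highest mean taken for 135 genes with several, while 1019 named several genes and 7317 none.

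The 11 comparisons among the 7 groups were fitted with limma 3.58.1 in R 4.3.3, with p-values adjusted by the Benjamini-Hochberg method over 14860 genes. The fit was also run on simulated data with independent noise. Those data held no deviation of a whole array, so they do not cover the array differences seen here. P-values measure only the spread between these arrays. Members, lists and tests were chosen with earlier results of these data known, and the Atf4 list comes from general knowledge. Every member could be named, with full statistics for at most the 4 largest rises and 4 largest falls called in a comparison, other called members by their change, and at most 4 called genes of any other list. Array values of *Cars* and *Hars* where they were not called, and those of *Atf4*, were added after they were seen.

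Alternatives were a common median for every array, quantile normalization, leaving out the 30% dimmest genes, the mean of all features of a gene, eBayes with trend and robust, array weights, a replicate block, each array left out in turn, and, chosen after seeing the data, leaving out the 2 arrays with the lowest medians. For P values in general, and not for the arrays by name, the methods give a two-tailed "Mann-Whitney unpaired t-test", which joins the names of a rank test and a t-test. An unpaired t-test with the same adjustment, called the methods' t-test here, was a further alternative, and no rank test was run, since 3 against 3 arrays cannot go below 0.1.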

Additional observations from a re-analysis of the deposited data

Results flagged for a closer look

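The change over 3 h of culture differed between E12.5 and E10.5 FBs in 7 synthetases, by a test of the difference itself in limma. The differences (E12.5 minus E10.5) were -0.70 for *Hars2*, -0.66 for *Farsb*, -0.65 for *Rars*, -0.63 for *Rars2*, -0.47 for *Yars2*, -0.39 for *Qars* and 0.66 for *Vars*. The changes within E10.5 FBs were 0.16, 0.02, 0.11, 0.02, -0.16, 0.21 and -0.10 in the same order. Without E10.5 0 h replicate 2 only 3 of the 7 were called, and *Rars2* (-0.55), *Yars2* (-0.42), *Qars* (-0.40) and *Vars* (0.65) were not. *Qars* was lost also without E10.5 3 h replicate 3, E12.5 0 h replicates 1 or 3 and E12.5 3 h replicate 2 (-0.38 to -0.35). *Rars2* was lost also without E10.5 3 h replicate 2, E12.5 0 h replicates 1 or 2 and E12.5 3 h replicates 1 or 2 (-0.61 to -0.51). *Vars* was lost also without E10.5 3 h replicate 2, E12.5 0 h replicates 2 or 3 and E12.5 3 h replicate 1 (0.56 to 0.65). *Yars2* was lost without every array used but E10.5 0 h replicate 1 and E12.5 3 h replicate 3 (-0.50 to -0.42). With every array at a common median *Rars2* (-0.65, adjusted p = 0.108), *Yars2* (-0.49, adjusted p = 0.119) and *Qars* (-0.41, adjusted p = 0.0957) were not called, nor were *Rars2* (-0.51) and *Yars2* (-0.49) without E10.5 3 h replicate 2 and 6 h replicate 3. Both stages were compared with their own arrays at 0 h.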

How the results depend on the processing

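No called change of a synthetase took the other sign. For 49 changes, those called and 5 of reported Atf4 targets at E10.5 6 h, 628 values under the alternatives kept their side of the threshold, 121 lost a call and 21 gained one. Of 55 medians over groups of synthetases 20 took the other sign under at least 1 alternative. Precision is limited by 3 arrays a group, and array weights were lowest for E10.5 3 h replicate 2 (0.175) and 6 h replicate 3 (0.233), the arrays with the lowest medians. Causes of the differences were not tested.

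At E10.5 6 h, 4 synthetases were called, 8 without the dimmest genes, 8 with trend and robust, 12 with array weights, and 0 by the methods' t-test. The share of all genes was 6.76% in the main fit and 13.9% with weights, and is not given here for the other settings named. For 6 h against 3 h, 1 became 9 with weights and 0 by the t-test. There the share of all genes went from 2.27% to 12.6% with weights. Array weights gave 2 calls instead of 0 at E10.5 3 h, 3 instead of 0 at E12.5 1 h and 1 instead of 0 for stage dependence at 1 h. The shares of all genes with weights were 18.0%, 9.95% and 7.23% in the same order, against 4.68%, 2.11% and 0.538% in the main fit. These counts with weights lie near or below those shares. Without the 2 arrays, 1 was called at E12.5 1 h. Between stages at 0 h, 7 became 15 under the common median, 16 under quantile normalization, 15 with weights and 11 without the 2 arrays. At 1 h, 4 became 9, 8, 10 and 8 under the same settings. At 3 h, 10 became 18 under the common median and 1 by the t-test. The shares of all genes called between stages at 0, 1 and 3 h were 27.1%, 18.1% and 28.7% in the main fit. They were 33.1%, 22.4% and 34.5% under the common median. At 0 and 1 h they were 32.2% and 22.8% under quantile normalization, and 42.3% and 33.7% with weights. With each array left out in turn the counts were 3 to 10 at E10.5 6 h, 0 to 2 for 6 h against 3 h, 10 to 11 at E12.5 3 h, 4 to 6, 1 to 4 and 4 to 10 between stages at 0, 1 and 3 h, 3 to 7 for stage dependence at 3 h, and 0 in the other comparisons.

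The cytosolic minus the mitochondrial median change was 0.30 at E10.5 3 h, 0.11 with weights and 0.067 without the 2 arrays. Between stages at 3 h it was -0.30, against -0.14 and -0.12, and for stage dependence at 3 h -0.13, against 0.10 and 0.10, a change of sign. At E12.5 3 h it was 0.064, and -0.040 without 3 h replicate 3. With each array left out it ran from 0.067 to 0.43, from -0.47 to -0.12 and from -0.29 to 0.10 in these 3, from 0.34 to 0.64 at E10.5 6 h, and from 0.081 to 0.40 for 6 h against 3 h.

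Over all genes, array weights called 12.7%, 18.0% and 13.9% at E10.5 1, 3 and 6 h. At E12.5 3 h, 1477 genes were higher and 2609 lower, 1730 and 2097 under the common median and 2265 and 2432 under quantile normalization. Between stages at 0 h these counts were 2925 and 1098, 1549 and 3367, and 2289 and 2498.

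Same-numbered arrays did not deviate together (mean correlation 0.013, from -0.20 to 0.33), so the numbers were not used as pairs. With a replicate block 6 synthetases were called at E10.5 6 h, 11 between stages at 3 h and 8 for stage dependence at 3 h, where *Yars2* was not called (-0.47, adjusted p = 0.067), and the other counts were those without it.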

Other observations

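The feature shared by *Aars*, the cytosolic alanine enzyme, and *Exosc6*, a subunit of the RNA exosome, belongs to no single gene and entered no comparison. Its log2 values were 10.17, 10.13 and 10.11 in E10.5 FBs at 0 h and 10.49, 10.55 and 10.48 at 6 h. In E12.5 FBs they were 9.86, 9.54 and 9.67 at 0 h and 10.11, 10.27 and 10.68 at 3 h.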
